A study of Mus musculus with 12 samples.

Results

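Nuclear-encoded subunits of the oxidative phosphorylation complexes were followed in the liver transcriptome of mice on a normal or a high-fat diet. Members were the gene names of the deposited table that begin with Nduf and one of the letters a, b, c, s or v before a digit, with Uqcr, with Atp5, or with Cox4 to Cox8 followed by a, b or c, together with Sdha, Sdhb, Sdhc and Sdhd. Names of pseudogenes marked -ps were dropped. The values of all transcripts with one gene name were added in each liver, and 78 names matched. Of these, 72 averaged 1 FPKM or more across the 12 livers, as did 10610 of the 22170 names in all. FPKM is the fragment number corrected for transcript length and library size. The 72 members comprised 32 of complex I, 4 of complex II, 8 of complex III, 11 of complex IV, 14 of complex V and 3 names that match but are not subunits proper (Cox7a2l, Atp5s and Atp5sl). The name patterns leave out other genes of the complexes, among them Ndufab1, Cyc1 and Cox4i1, so the complexes are not complete here.

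All mice were male C57BL/6J, housed one to a cage, assigned to the diets at random, and 21 weeks old when the livers were taken after 16 weeks of feeding. The normal diet (ND) group received no high-fat feed, the HFD group received the high-fat diet alone, the CLE group received the same high-fat diet with 1.5% (w/w) ethanol extract of chrysanthemum leaves, and the LU group received it with 0.003% (w/w) luteolin, a plant flavone. No ND mice were given the extract or luteolin, so any comparison of CLE or LU with ND joins the diet and the supplement. Each group had 3 sequenced livers, each from one mouse, which the methods call representative without giving how they were chosen.

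Oxidative phosphorylation passes electrons from NADH and succinate through complexes I to IV of the inner mitochondrial membrane to oxygen, and ATP synthase, complex V, uses the resulting proton gradient to make ATP. Most subunits are encoded in the nucleus and imported, and a few in the mitochondrial genome. Complex II, succinate dehydrogenase, is made of nuclear-encoded subunits alone and is also an enzyme of the citric acid cycle. Liver mitochondria use the same chain to oxidise the fatty acids that reach the organ.

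In whole liver, fewer cells of a type and less RNA per cell cannot be told apart. Without read counts the sequencing depth is unknown, and counting intervals cannot be given. Of the hepatocyte markers, albumin was listed at 0 in 11 livers, where a 0 can be a failed estimate, and the sum of the 9 markers present ran from 32558 to 58959 FPKM over the 12 livers. The sum of 6 Kupffer cell markers ran from 94.3 to 107 FPKM in ND and from 141 to 211 in HFD livers, that of 6 stellate cell markers from 8.69 to 11.5 and from 27.8 to 32.6, that of 5 endothelial markers from 63.4 to 74.8 and from 80.1 to 84.7, that of 4 erythroid markers from 132 to 182 and from 216 to 282, and that of 5 adipocyte markers from 37.3 to 74.7 and from 132 to 177. The adipocyte sum reached 142 to 296 FPKM in CLE and 241 to 370 in LU livers, almost wholly from Cfd and Cidec, while Adipoq, Plin1 and Lep stayed below 1 FPKM. Whether these moved any member was not tested. Over all names, the median change from ND to HFD was 0.11 on the log2 scale and -0.01 after scaling by the median of ratios, and 1084 higher and 234 lower names became 598 and 464. Between CLE and ND the split went from 2299 higher and 711 lower to 1247 and 1520, and between LU and ND from 1255 and 442 to 749 and 965. The direction of a small change against ND therefore depends on the scaling.

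The members were among the abundant transcripts of the liver. Their sum was 16315, 14065 and 15635 FPKM in the ND livers, 18605, 15202 and 13982 in the HFD livers, 13718, 19611 and 16109 in the CLE livers, and 15534, 15555 and 15439 in the LU livers. The LU livers lay closest together, and the ranges of all groups overlapped. The median of the members' means was 147 FPKM, with 92.6 in complex I, 144 in complex II, 260 in complex III, 348 in complex IV and 279 in complex V. The highest member of complex I was Ndufb9, an accessory subunit of the membrane arm, with 350 FPKM. In complex II it was Sdha with 245, in complex III Uqcrb, a small subunit, with 422, in complex IV Ndufa4 with 1134, and in complex V Atp5b with 887.

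Isoforms known from heart and skeletal muscle were low or near 0 on the FPKM scale, which is per length. The liver form Cox6a1 averaged 453 FPKM and Cox6a2 0.0583, Cox8a 386 and Cox8b 0.344, Cox6b1 348 and the testis form Cox6b2 0.872, and Cox7a2 97.6 and Cox7a1 4.73. Ndufa4, a subunit of cytochrome c oxidase despite its name, stood at 1134 FPKM and its hypoxia-inducible relative Ndufa4l2 at 0.652. The muscle markers summed to at most 0.480 FPKM in any liver. Just inside the minimum were Cox7a1 and Atp5s (5.56), and just outside Cox6b2 and Ndufa4l2, while Cox7b2 and Cox8c, the other names left out, were listed at 0. The 3 genes for the identical mature c subunit of the ATP synthase rotor differed in level, with Atp5g3 at 720 FPKM, Atp5g1 at 106 and Atp5g2 at 88.6.

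**Figure D1:**
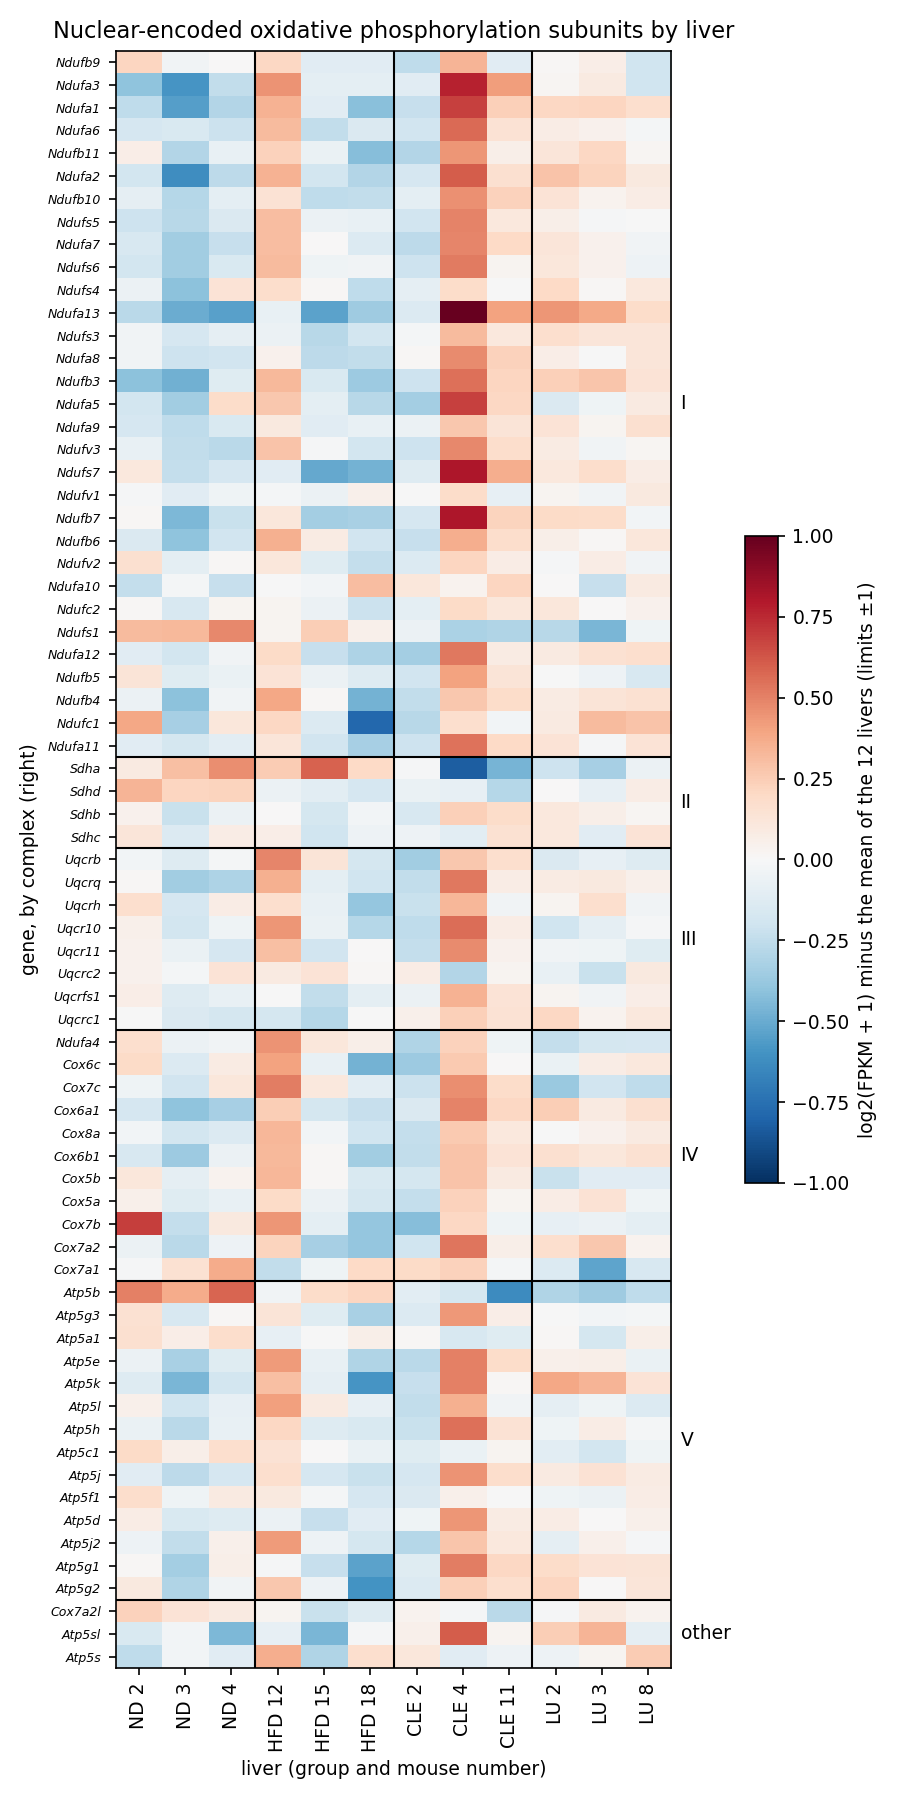
Each row is one of 71 of the 72 members grouped by complex, each column a liver, and the colour is the log2(FPKM + 1) value minus the member's mean over the 12 livers. HFD mouse 12, CLE mouse 4 and CLE mouse 11 were above the mean for 57, 62 and 55 of all 72 members, and ND mouse 3, HFD mice 15 and 18 and CLE mouse 2 for 8, 15, 11 and 9.

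Livers of the same group differed from each other in the level of the members, most in CLE and HFD and least in LU. The median of the members' deviations from their own means was -0.01, -0.19 and -0.07 (log2) in the ND livers, 0.20, -0.09 and -0.18 in HFD, -0.17, 0.34 and 0.10 in CLE, and 0.06, 0.03 and 0.05 in LU. HFD mouse 12 was thus high beside its group, and the CLE group held both the highest and one of the lowest livers. Cytosolic ribosomal protein genes (81 names), which also have short and abundant transcripts, gave 0.00, -0.23 and -0.18 in ND, 0.20, -0.24 and -0.32 in HFD, -0.08, 0.50 and 0.10 in CLE, and 0.14, 0.13 and 0.02 in LU. Both sets were highest in CLE mouse 4 and HFD mouse 12. Members had a median transcript length of 745 bases against 2633 over all names, and a median GC content of 51.7% against 50.3%. Across 10563 names, which are not independent, the rank correlation of a liver's deviation with GC content was -0.39 to -0.14 in the ND and HFD livers and 0.17 to 0.49 in the CLE and LU livers. That with transcript length was positive in all but HFD mouse 12 of the ND and HFD livers, and negative in all but CLE mouse 2 of the CLE and LU livers. The part of length and GC content in the differences below was not tested beyond the corrections given.

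The first comparison asked what the high-fat diet did to the chain. One member, Sdhd, was called and it was lower in HFD livers, and none was higher. Over all names 2.21% were lower and 10.2% higher at an adjusted p under 0.05 (limma, Benjamini-Hochberg over 10610 names). The unadjusted p was under 0.05 for 4 members. The median change of the members was 0.04 (log2), with 0.06 in complex I, -0.03 in complex II, 0.06 in complex III, 0.04 in complex IV and -0.06 in complex V, beside 0.11 over all names. With the median standard error of 0.16, the 95% interval lay within ±0.5 for 36 members and within ±1 for all 72. After a correction for transcript length the median was -0.14 and 4 members were called, all lower, and after correction for length and GC content 5, all lower.

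Sdhd encodes a membrane anchor of succinate dehydrogenase (ENSMUSG00000000171, GRCm38 chr9:50596357-50603812, minus strand). Its levels were 200, 183 and 184 FPKM in ND, 152, 147 and 140 in HFD, 151, 149 and 130 in CLE, and 158, 149 and 166 in LU livers. Every ND liver was above every other liver, and the 3 high-fat groups overlapped. The mean fell from 189 ± 9.49 (SD, n = 3) to 146 ± 5.85 FPKM, a change of -0.37 (SE 0.10, log2(FPKM + 1), limma adjusted p = 0.029), and CLE differed from ND by -0.40 (adjusted p = 0.013). LU livers at 158 ± 8.60 gave -0.26 against ND (adjusted p = 0.086). Without any one of the 6 ND and HFD livers the call for HFD was lost, with adjusted p up to 0.119 without ND mouse 2. At the same change of -0.37, it also did not pass with the transcript of the highest mean alone (limma adjusted p = 0.051) or among single transcripts (0.097). Sdhd was the member whose promoter is shown here for the diet comparison, 250 bases before the RefSeq start on GRCm38.p6 (chr9:50603850-50604099, minus strand). The capitals mark CTTCCGG, the reverse complement of the ETS factor motif CCGGAAG, beginning 46 bases before the start. With the 50 bases after the start, which are not shown, the searched stretch also holds a match to the ERRA motif TGACCTTG.
Sdhd: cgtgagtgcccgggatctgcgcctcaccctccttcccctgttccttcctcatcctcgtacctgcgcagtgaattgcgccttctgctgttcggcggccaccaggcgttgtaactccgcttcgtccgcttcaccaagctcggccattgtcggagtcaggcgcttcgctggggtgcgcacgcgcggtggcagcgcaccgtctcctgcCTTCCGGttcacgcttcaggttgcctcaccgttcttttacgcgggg

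The subunits Sdhb and Sdhc of complex II passed no test. Sdhb, the iron-sulfur subunit, averaged 122 ± 11.3, 123 ± 8.25, 137 ± 20.1 and 134 ± 3.95 FPKM in ND, HFD, CLE and LU livers (SD, n = 3). Sdhc, the second membrane anchor, averaged 67.5 ± 6.36, 63.7 ± 5.85, 66.4 ± 6.41 and 68.6 ± 6.39. The intervals of the change from ND to HFD were -0.25 to 0.28 for Sdhb and -0.34 to 0.17 for Sdhc (log2, 95%). The groups overlapped for both genes, except that the LU livers (130 to 138 FPKM) were above the HFD livers (114 to 129) for Sdhb.

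Groups that do not overlap were counted as a second description of the same comparison. Of the 72 members, 5 were higher and 5 lower in every HFD liver than in every ND liver, where all names gave 28.6% and 7.76%. The higher ones were Ndufa3, Ndufs5, Ndufa7, Ndufs6 and Ndufa9, all accessory subunits of complex I, and the lower ones Sdhd, Atp5b, Atp5a1, Ndufs1 and Cox7a2l. Ndufa3, with the largest increase, had 242, 212 and 270 FPKM in ND and 436, 298 and 299 in HFD livers, 0.50 on the log2 scale (SE 0.21, limma adjusted p = 0.145). Its HFD livers were higher by a margin that did not pass the test.

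The second comparison asked how the liver of mice given the extract differed from that of mice on the high-fat diet alone. One member was higher, Ndufs7, and one lower, Sdha, where 3.43% of all names were higher and 4.02% lower (limma, adjusted p under 0.05). The median change of the members was 0.12 (log2), beside 0.01 over all names. Above 0 were 30 of 32 members of complex I, 76 of 81 ribosomal protein genes, 28 of 37 proteasome subunits and 5436 of all 10610 names. Complex medians were 0.17 in I, 0.01 in II, 0.10 in III, 0.02 in IV and 0.15 in V. Ribosomal protein genes gave a median of 0.31 with 4 of 81 called higher, and the 37 proteasome subunits 0.23 with 8 called higher. After correction for length the members' median was 0.02, and for length and GC content 0.0010. Without CLE mouse 2, 14 members were called (11 higher, 3 lower), and without any one HFD liver, CLE mouse 4 or CLE mouse 11 none was. Not overlapping were 5 higher (16.4% of all names) and 3 lower (15.7%).

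**Figure D2:**
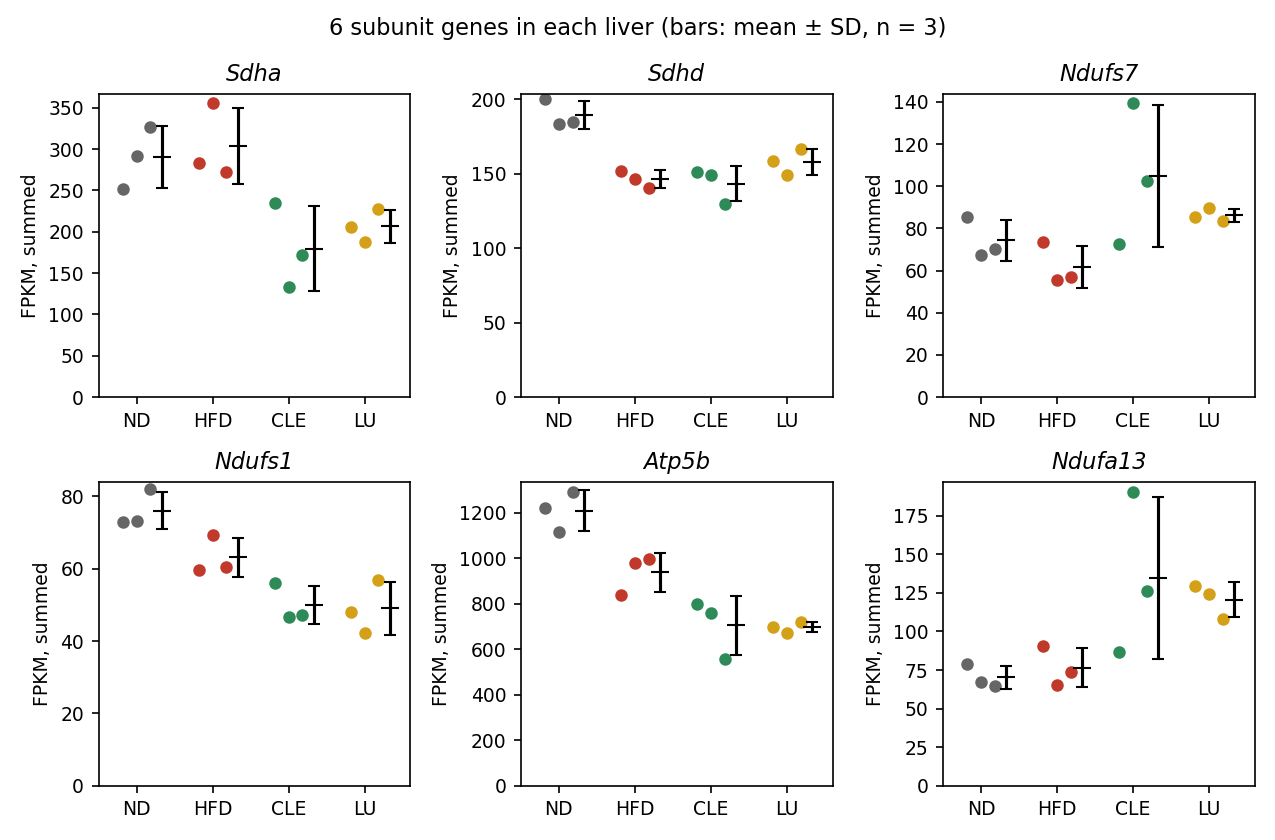
Summed FPKM of Sdha, Sdhd, Ndufs7, Ndufs1, Atp5b and Ndufa13 by group, one point per liver, with bars at the group mean and SD (n = 3). Sdhd was highest in every ND liver, the ND, HFD and supplemented livers did not overlap for Atp5b and Ndufs1, and Sdha was lower in CLE and LU than in ND and HFD livers.

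Sdha is the flavoprotein that binds and oxidises succinate (ENSMUSG00000021577, chr13:74322254-74350280, minus strand). The livers had 252, 292 and 327 FPKM in ND, 283, 356 and 272 in HFD, 234, 133 and 171 in CLE, and 205, 188 and 228 in LU. No CLE or LU liver reached the lowest ND or HFD liver. The CLE mean was 180 ± 51.2 against 304 ± 45.7 FPKM in HFD (SD, n = 3), a change of -0.78 on the log2 scale (SE 0.19, limma adjusted p = 0.035), and -0.72 against ND (adjusted p = 0.016). LU at 207 ± 19.9 gave -0.54 against HFD (adjusted p = 0.141) and -0.48 against ND (0.0875). The CLE call held in 7 of 12 fits without one liver and in 11 of 15 other settings. No motif of those searched is in its promoter, shown as the other member of complex II that was called (GRCm38.p6 chr13:74350241-74350490, minus strand, no capitals). The stretch ends at the RefSeq start, and its last bases lie within the GENCODE gene span given above.
Sdha: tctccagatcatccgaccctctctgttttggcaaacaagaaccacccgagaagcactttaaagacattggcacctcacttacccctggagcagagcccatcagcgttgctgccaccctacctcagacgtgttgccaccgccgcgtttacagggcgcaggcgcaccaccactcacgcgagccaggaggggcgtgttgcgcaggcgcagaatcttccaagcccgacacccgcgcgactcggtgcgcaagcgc

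Ndufs7 carries the iron-sulfur cluster next to the quinone site of complex I (ENSMUSG00000020153, chr10:80249121-80256794, plus strand). Its levels were 85.3, 67.2 and 70.5 FPKM in ND, 73.4, 55.5 and 56.9 in HFD, 72.6, 140 and 102 in CLE, and 85.3, 89.6 and 83.6 in LU livers. The lowest CLE liver was just under the highest HFD liver, and all LU livers were above all HFD livers. The CLE mean of 105 ± 33.6 against 61.9 ± 9.98 FPKM (SD, n = 3) was a rise of 0.71 on the log2 scale (SE 0.19, limma adjusted p = 0.047), and LU gave 0.48 (adjusted p = 0.189). The call held in 6 of 15 other settings and in 1 of 12 fits without one liver, that without CLE mouse 2. With the GC correction the change was 0.41 (adjusted p = 0.158). The 250 bases before its RefSeq start, the third stretch shown for a called member, hold none of the motifs, while the 50 bases after the start bring a match to the YY1 motif (GRCm38.p6 chr10:80249199-80249448, plus strand, no capitals). The GENCODE gene span given above begins further 5′, so the whole stretch lies within it.
Ndufs7: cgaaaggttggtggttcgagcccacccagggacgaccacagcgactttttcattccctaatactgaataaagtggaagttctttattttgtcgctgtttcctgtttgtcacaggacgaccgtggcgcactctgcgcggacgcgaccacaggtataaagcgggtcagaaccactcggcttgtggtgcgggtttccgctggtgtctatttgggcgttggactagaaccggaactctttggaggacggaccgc

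The third comparison set luteolin against the high-fat diet alone. With limma no member passed, where 0.320% of all names were higher and 0.735% lower, and 11 members had an unadjusted p under 0.05 (6 higher, 5 lower). The members' median was 0.09, beside -0.02 over all names, with 0.13, 0.11, -0.03, 0.01 and 0.03 in complexes I to V. The 95% interval lay within ±0.5 for 35 members and within ±1 for 71. Without CLE mouse 4, which enters only through the shared estimate of the spread, 1 member was called, and 1 was called when these 2 groups were fitted alone. Not overlapping were 8 higher members (13.5% of all names) and 5 lower (17.7%). Among the higher ones were the complex I core subunits Ndufs3 and Ndufs7, with Ndufa13, Sdhb, Uqcrc1, Atp5d and Atp5g1, and the lower ones were Ndufs1, Sdha, Ndufa4, Cox7c and Atp5b. LU and CLE were compared with the same HFD livers.

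CLE and LU livers differed in no member by limma, where 0.00943% of all names (1 gene) passed, and 2 members had an unadjusted p under 0.05. The extract and luteolin were given at different amounts, so the values stand side by side without a match of dose. The interval of the difference lay within ±0.5 for 52 members and within ±1 for all 72. The only member without overlap was Cox7a1, with 5.45, 5.63 and 4.57 FPKM in CLE and 4.14, 2.92 and 4.06 in LU livers (0.41, SE 0.15, limma adjusted p = 0.969).

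Compared with ND, the groups given a supplement differed in more members. Between CLE and ND, 4 members were higher and 4 lower (limma, adjusted p under 0.05), where all names gave 21.7% and 6.70%. The lower members were Atp5b, Sdha, Ndufs1 and Sdhd, and the higher ones Ndufa13, Ndufa3, Cox6a1 and Ndufa8. Between LU and ND, Ndufa13 was higher and Atp5b and Ndufs1 lower, where all names gave 11.8% higher and 4.17% lower. The members' median was 0.19 for CLE and 0.17 for LU, beside 0.15 and 0.11 over all names, with 0.30 and 0.22 in complex I, -0.21 and -0.12 in complex II, 0.17 and 0.01 in complex III, 0.06 and -0.01 in complex IV, and 0.14 and 0.09 in complex V. With the correction for length the members called were 0 higher and 10 lower for CLE and 0 higher and 10 lower for LU. With median-of-ratios scaling they were 1 and 7 for CLE, and 0 and 6 for LU. Without CLE mouse 2 the calls were 23 higher and 4 lower for CLE, and 6 higher and 3 lower for LU, the same counts as LU gave without CLE mouse 4. Not overlapping were 11 higher (31.7% of all names) and 7 lower (10.9%) members for CLE, and 29 higher (29.6%) and 10 lower (12.3%) for LU. In LU the 29 of 72 members were a larger share than over all names, and the LU livers were also the closest to each other.

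Among the 4 groups together, 5 of the 72 members passed limma's moderated F test (Atp5b, Ndufs1, Sdha, Ndufa13 and Sdhd), where 26.1% of all names passed. Without CLE mouse 2 there were 19. Of these 5, Sdha, Sdhd, Ndufs1 and Atp5b encode parts of the chain that carry out its chemistry or anchor it, and Ndufa13, also known as GRIM-19, is an accessory subunit of complex I. Other catalytic, core or anchor subunits, among them Sdhb, Sdhc, Ndufs3, Ndufv1, Ndufv2 and Atp5a1, did not pass, so the called members do not mark a functional class.

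Atp5b encodes the catalytic beta subunit of ATP synthase (ENSMUSG00000025393, chr10:128083273-128090391, plus strand). The ND livers had 1221, 1114 and 1290 FPKM, the HFD livers 838, 977 and 996, the CLE livers 799, 760 and 556, and the LU livers 699, 672 and 720. The groups did not overlap from ND to HFD, nor from HFD to CLE or LU, while CLE and LU overlapped. The means were 1209 ± 88.5, 937 ± 86.2, 705 ± 130 and 697 ± 23.7 FPKM (SD, n = 3). Against ND, CLE and LU differed by -0.79 each (limma adjusted p = 0.0038 and 0.0061), in all 12 fits without one liver. The step from ND to HFD was -0.37 (adjusted p = 0.117), and it passed with median-of-ratios scaling (0.044) and with the length (0.035), GC (0.041) and joint (0.034) corrections. The alpha subunit Atp5a1 had 564, 529 and 570 FPKM in ND, 477, 504 and 524 in HFD, 508, 451 and 463 in CLE, and 507, 447 and 524 in LU livers. Its ND livers were also above all others, by less (HFD against ND -0.14, adjusted p = 0.419).

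The fall of Atp5b was uneven along its transcripts. A short transcript of 343 bases at its 5′ end (ENSMUST00000127439) is listed in GENCODE M21 as a processed transcript and not as protein-coding. The summed values add it to the coding form. It was estimated at 493, 455 and 591 FPKM in ND, 237, 338 and 395 in HFD, 26.3, 26.5 and 70.9 in LU, and 183 FPKM or close to 0 in CLE livers. The full-length transcript (ENSMUST00000026459) had 712, 646 and 685 FPKM in ND, 588, 624 and 580 in HFD, 595, 466 and 504 in CLE, and 611, 593 and 613 in LU. ND livers were highest for both, and the other groups overlapped for the full-length form. Tested alone, the full-length form was lower in CLE than in ND by -0.39 (limma adjusted p = 0.032 over 24947 transcripts), in 7 of 12 fits without one liver. In LU against ND it differed by -0.17 and did not pass (adjusted p = 0.308), where the sum gave -0.79. The LU livers were within the range of the HFD livers for the full-length form and below it for the short form.

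Ndufs1 is the largest core subunit of complex I and holds several of its iron-sulfur clusters (ENSMUSG00000025968, chr1:63143596-63176833, minus strand). The livers had 73.0, 73.2 and 82.0 FPKM in ND, 59.7, 69.4 and 60.5 in HFD, 56.2, 46.7 and 47.2 in CLE, and 48.0, 42.2 and 56.8 in LU. ND did not overlap HFD, and HFD did not overlap CLE or LU. Against ND it differed by -0.60 in CLE (SE 0.13, limma adjusted p = 0.0069) and -0.63 in LU (adjusted p = 0.0090), in all 12 fits without one liver. The steps from ND to HFD (-0.26, adjusted p = 0.194), HFD to CLE (-0.33, 0.0989) and HFD to LU (-0.37, 0.141) did not pass. The first of these passed with the length (-0.39, adjusted p = 0.046), GC (-0.38, 0.049) and joint (-0.39, 0.034) corrections. With the transcript of the highest mean alone, the calls against ND were lost, at -0.39 in CLE (adjusted p = 0.0728) and -0.28 in LU (0.191).

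Ndufs3, Ndufv1 and Ndufv2, also core subunits of complex I, did not share that pattern. Ndufs3 averaged 92.9 ± 4.41, 88.4 ± 6.73, 110 ± 13.1 and 110 ± 2.04 FPKM in ND, HFD, CLE and LU livers (SD, n = 3). All CLE and LU livers were above all HFD livers, with a change of 0.31 in each that did not pass (limma adjusted p = 0.0827 and 0.142). The flavoprotein Ndufv1, which takes electrons from NADH, stayed at 78.5 ± 2.99, 81.0 ± 3.08, 83.8 ± 8.33 and 83.5 ± 3.91, and its partner Ndufv2 at 69.2 ± 6.37, 64.4 ± 8.26, 70.7 ± 8.69 and 68.3 ± 2.80. The intervals of the change from HFD to CLE were -0.17 to 0.26 for Ndufv1 and -0.13 to 0.40 for Ndufv2. Reads of Ndufs8 stood under the name of a neighbour.

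Among the accessory subunits of complex I, Ndufa13 (ENSMUSG00000036199) had 78.9, 67.2 and 64.8 FPKM in ND, 90.4, 65.3 and 74.0 in HFD, 86.6, 191 and 126 in CLE, and 130, 124 and 108 in LU livers. All CLE and LU livers were above all ND livers, and all LU livers above all HFD livers. It rose against ND by 0.86 in CLE (SE 0.22, limma adjusted p = 0.016) and 0.77 in LU (adjusted p = 0.035), and the values against HFD were 0.74 (0.0564) and 0.66 (0.139). Part of the rise lay in an assembled transcript that begins further 3′, which had 26.3 to 41.6 FPKM in the ND and HFD livers, 46.1, 128 and 80.5 in CLE, and 78.8, 76.8 and 59.1 in LU. With known transcripts only, Ndufa13 differed from ND by 0.36 in CLE (adjusted p = 0.121) and 0.37 in LU (0.132), and with both corrections by 0.40 (0.126) and 0.41 (0.146). Ndufa3 rose in CLE against ND by 0.77 (adjusted p = 0.019), or 0.45 with the length correction (0.063), with 296, 546 and 427 FPKM in CLE and 325, 340 and 278 in LU livers. Ndufa8 had 92.5, 82.0 and 82.9 FPKM in ND and 95.6, 131 and 111 in CLE livers and rose (0.38, adjusted p = 0.041), in 3 of 12 fits without one liver. With the length correction its change was 0.08 (adjusted p = 0.578) and with both corrections 0.03 (0.835). Ndufa13, Ndufa3 and Ndufa8 were named after their values were seen, as were the transcripts described.

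**Figure D3:**
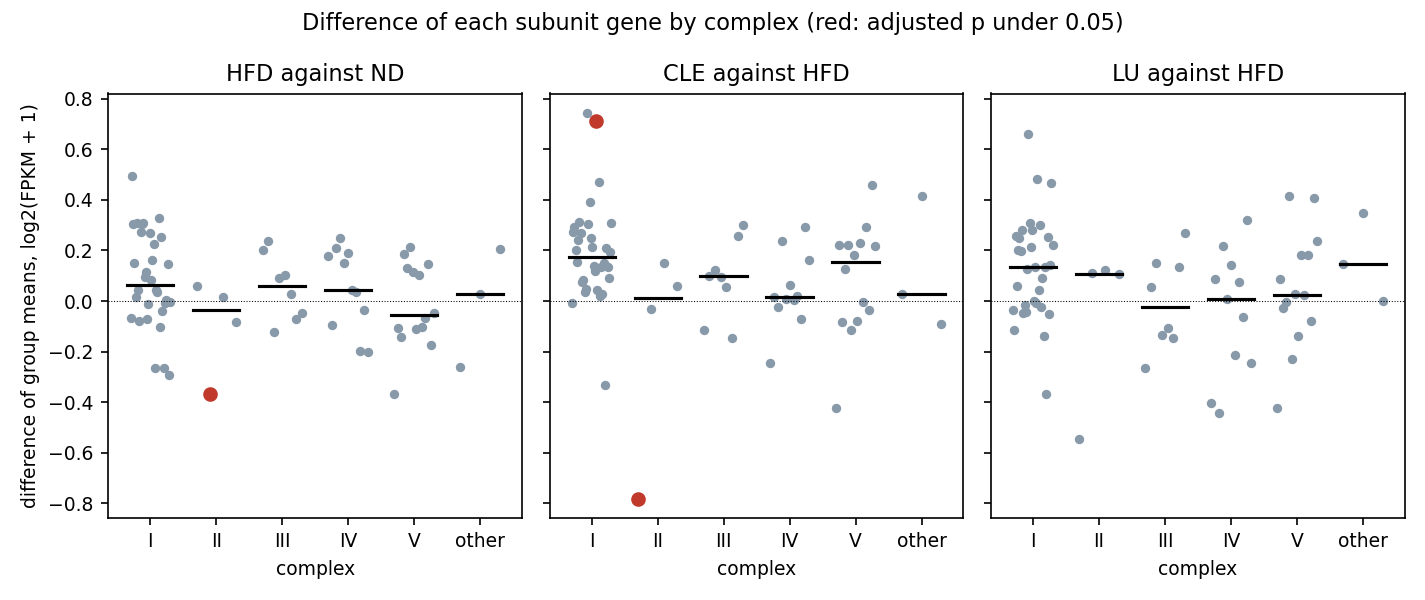
Difference of group means (log2(FPKM + 1)) of each of the 72 members by complex, one panel for each of 3 comparisons, with the median as a line and members past an adjusted p of 0.05 in red. The red points are Sdhd (-0.37) for HFD against ND, and Ndufs7 (0.71) and Sdha (-0.78) for CLE against HFD, with none for LU against HFD.

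In complex III no member was called in any comparison. The core proteins Uqcrc1 and Uqcrc2, which line the matrix side, averaged 126 ± 8.18, 122 ± 12.4, 151 ± 9.73 and 148 ± 8.86 FPKM and 182 ± 9.85, 185 ± 8.23, 168 ± 22.6 and 168 ± 18.6 in ND, HFD, CLE and LU livers (SD, n = 3). All CLE and LU livers were above all HFD livers for Uqcrc1 (0.30, limma adjusted p = 0.0884, and 0.27, 0.181). Its full-length transcript (ENSMUST00000026743) overlapped, with 120, 111 and 136 FPKM in HFD, 134, 106 and 129 in CLE, and 116, 106 and 140 in LU livers. In the lowest of 15 other settings the change of Uqcrc1 was 0.0087 in CLE and -0.023 in LU. An assembled form of the gene is described with the single transcripts below. Uqcrfs1, the Rieske iron-sulfur protein, averaged 160 ± 11.6, 152 ± 12.7, 183 ± 25.7 and 167 ± 5.86. Uqcrb had 410, 383 and 413 FPKM in ND, 585, 456 and 370 in HFD, 329, 503 and 468 in CLE, and 378, 394 and 382 in LU livers. The groups overlapped for Uqcrb, and the HFD liver at 585 was that of mouse 12.

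In complex IV one member was called, Cox6a1, the liver form of a regulatory subunit. It had 397, 336 and 353 FPKM in ND, 529, 395 and 379 in HFD, 403, 630 and 515 in CLE, and 529, 473 and 497 in LU livers. CLE and LU livers were above ND livers without overlap, and HFD livers overlapped all groups. It rose in CLE against ND by 0.49 (SE 0.17, limma adjusted p = 0.045), in 2 of 12 fits without one liver, and LU against ND was 0.47 (0.073). The change in CLE was 0.16 with the length correction (adjusted p = 0.362), 0.08 with the GC correction (0.756) and 0.05 with both (0.777). Cox6b1 averaged 301 ± 32.0, 349 ± 80.6, 362 ± 65.8 and 378 ± 6.11 FPKM, Cox7a2 88.0 ± 7.52, 87.3 ± 21.8, 108 ± 28.5 and 107 ± 8.94, and Cox8a 354 ± 20.0, 398 ± 77.5, 399 ± 68.5 and 395 ± 12.9. None of these passed a test.

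In complex V the c subunit genes did not pass a test. Atp5g1 averaged 98.6 ± 14.4, 87.7 ± 16.1, 122 ± 26.9 and 115 ± 2.34 FPKM in ND, HFD, CLE and LU livers (SD, n = 3), Atp5g2 83.2 ± 11.5, 82.5 ± 24.0, 93.8 ± 12.5 and 94.8 ± 7.01, and Atp5g3 718 ± 76.7, 670 ± 106, 786 ± 161 and 706 ± 5.44. LU livers were above HFD livers without overlap for Atp5g1 (0.41, limma adjusted p = 0.207).

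Ndufa4 (chromosome 6, minus strand), the most abundant member, was also described by its single transcripts. Its sum was 1262, 1079 and 1098 FPKM in ND, 1534, 1213 and 1167 in HFD, 909, 1319 and 1088 in CLE, and 949, 993 and 998 in LU livers, and did not pass against HFD in LU (-0.40, limma adjusted p = 0.171). The sum joins the reference transcript (ENSMUST00000031637, chr6:11900373-11907446) and an assembled one that runs 1211 bases further on the genome at the 3′ side (chr6:11899162-11907446). The coordinates are those of the table and match GRCm38.

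The longer form had 859, 751 and 734 FPKM in ND, 1094, 832 and 844 in HFD, 522, 637 and 644 in CLE, and 273, 383 and 451 in LU livers. All LU livers were below all CLE livers, which were below all ND and HFD livers. The change from HFD to LU was -1.34 (SE 0.19, 95% interval -1.75 to -0.93, limma adjusted p = 0.0075 over 24947 transcripts) and that from ND to LU -1.11 (0.0080), in all 12 fits without one liver. CLE against HFD was -0.61 (0.0749). The reference form had 403, 327 and 364 FPKM in ND, 440, 380 and 323 in HFD, 387, 682 and 444 in CLE, and 675, 610 and 547 in LU livers. It was higher in LU than in ND by 0.74 (adjusted p = 0.039), and LU against HFD was 0.69 (0.0878). The longer form made up 68.1%, 69.7% and 66.8% of the sum in ND, 71.3%, 68.6% and 72.3% in HFD, 57.4%, 48.3% and 59.2% in CLE, and 28.8%, 38.6% and 45.2% in LU livers. The means were 68.2 ± 1.41%, 70.8 ± 1.90%, 54.9 ± 5.84% and 37.5 ± 8.25% (SD, n = 3).

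**Figure D4:**
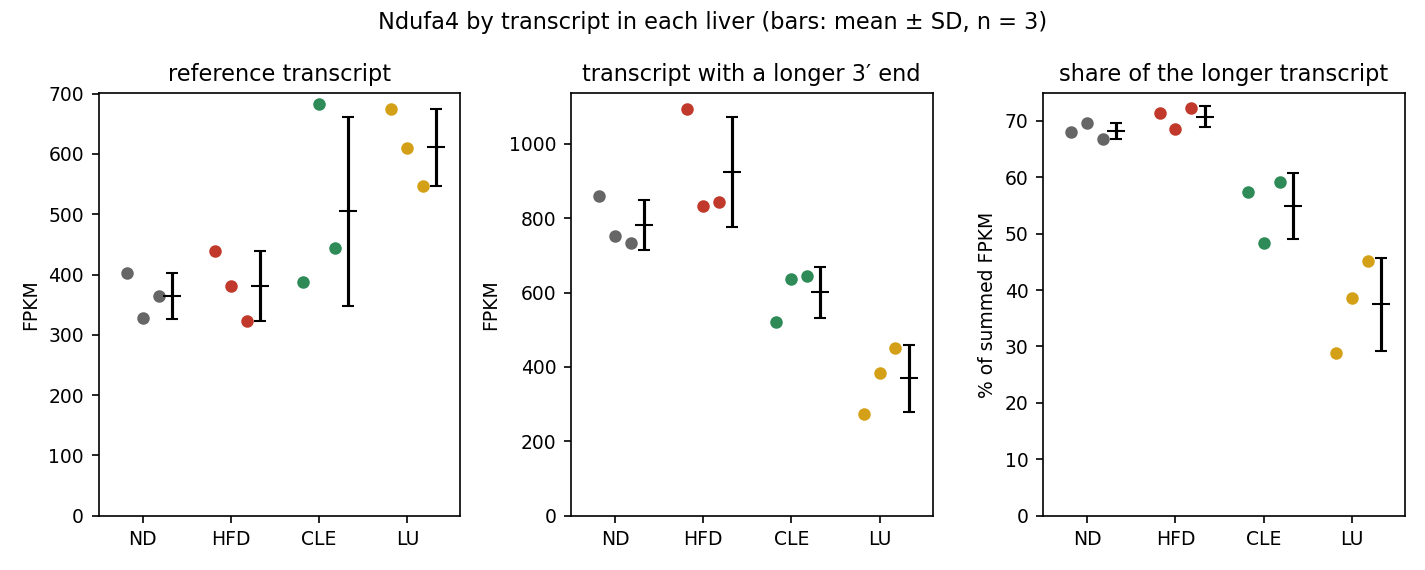
FPKM of the reference and of the longer Ndufa4 transcript, and the percent of their sum in the longer one, in each liver. The longer transcript made up 66.8 to 72.3% in ND and HFD, 48.3 to 59.2% in CLE and 28.8 to 45.2% in LU livers.

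Single transcripts of the members were tested across the table, 185 of 72 genes. Called higher and lower were 0 and 0 for HFD against ND (1.44% and 0.525% of all 24947 transcripts), 2 and 3 for CLE against HFD (2.07% and 2.28%), 1 and 2 for LU against HFD (1.54% and 1.76%), 7 and 9 for CLE against ND (11.7% and 6.50%), and 6 and 4 for LU against ND (7.89% and 4.45%). Without CLE mouse 2 these were 25 in all for CLE against HFD and 46 for CLE against ND, and without CLE mouse 4 15 for LU against HFD. One of those called, an assembled form of Uqcrc1 that begins further 3′, was called higher in CLE and in LU against both ND and HFD. It was close to 0 (at most 0.879 FPKM) in ND and HFD livers and had 6.89, 52.9 and 21.9 FPKM in CLE and 40.8, 33.5 and 6.69 in LU.

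Partial forms also differed between livers when taken over all genes that had such a form above a minimum level. Relative to the full-length form, the median of forms at the 3′ end of 553 genes was -0.34, -0.30 and -0.26 (log2, minus the mean of livers) in ND, -0.18, -0.31 and -0.18 in HFD, -0.02, 0.75 and 0.28 in CLE, and 0.16, 0.33 and 0.08 in LU livers. Forms at the 5′ end of 420 genes gave 0.02, 0.22 and 0.24 in ND, 0.13, 0.20 and 0.03 in HFD, -0.01, -0.10 and -0.11 in CLE, and -0.32, -0.19 and -0.08 in LU. CLE mouse 4 was highest at the 3′ end, and CLE mouse 2 was close to the mean of livers at both ends. The part of this in the results for Ndufa4, Atp5b, Sdha, Ndufa13 and Uqcrc1 was not tested. For Sdha, the 5′ form of 438 bases is listed in GENCODE M21 as a retained intron, and the sums include it. This form had 27.6, 39.7 and 74.9 FPKM in ND and 38.3, 80.2 and 17.9 in HFD livers. It had 15.5 FPKM in CLE mouse 2 and 6.65 in LU mouse 8, and was close to 0 in the other CLE and LU livers. The full-length form of Sdha had 240, 270 and 249 FPKM in HFD and 215, 127 and 168 in CLE livers (limma adjusted p = 0.065).

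**Figure D5:**
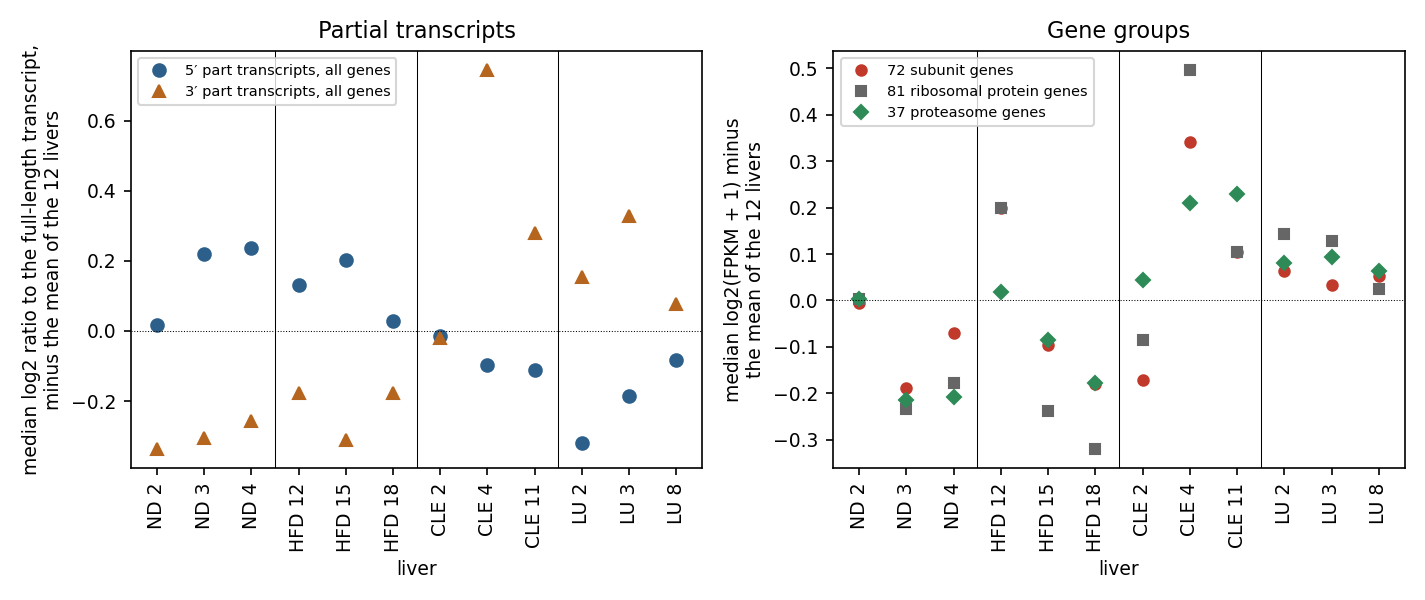
Left, the median log2 ratio of partial to full-length transcripts in each liver, minus the mean of the 12 livers, over 553 genes with 3′ and 420 with 5′ forms. Right, the median log2 deviation of the 72 members, 81 ribosomal protein and 37 proteasome genes, where CLE mouse 4 was high for all sets (0.34, 0.50 and 0.21), as it was for 3′ forms (0.75).

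The medians differed between members with short and with long transcripts. Of the 72, 45 had transcripts under 1000 bases and 27 had longer ones, a split chosen after the values were seen. The median change from HFD to CLE was 0.15 in the short and 0.05 in the long set, from ND to HFD 0.11 and -0.07, from ND to CLE 0.29 and 0.09, and from ND to LU 0.21 and 0.06. For HFD to LU it was 0.08 and 0.11. Over all names with short transcripts (1145) the medians were 0.13 for CLE against HFD, 0.16 for HFD against ND, 0.32 for CLE against ND and 0.26 for LU against ND.

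Genes that serve the chain were described by lists chosen with earlier results known. Of 42 assembly factors, 2 were higher and 1 lower in HFD than in ND livers, 4 and 1 in CLE against HFD, and 1 and 0 in LU against HFD. Over all names the shares called higher and lower were 10.2% and 2.21%, 3.43% and 4.02%, and 0.320% and 0.735% in these comparisons. Sco2, a copper chaperone of cytochrome c oxidase, was in all 3 comparisons, with 109 ± 13.7 FPKM in ND, 76.5 ± 9.31 in HFD, 128 ± 20.6 in CLE and 120 ± 4.41 in LU livers (SD, n = 3). It differed by -0.51 between HFD and ND, and was higher by 0.73 in CLE and 0.65 in LU livers than in HFD (limma adjusted p = 0.029, 0.020 and 0.043). Uqcc2, which helps to assemble complex III, rose from 26.7 ± 1.21 to 45.1 ± 9.31 FPKM with the HFD (0.72, adjusted p = 0.014). A further list held genes of the complexes outside the name patterns. Of its 6 tested genes, 3 were above 0 for HFD against ND, with a median of -0.03, and 1 was called higher and 0 lower. The called one was Atpif1, the inhibitor of ATP synthase, which rose from 12.0 ± 2.48 to 18.4 ± 1.64 FPKM (0.59, limma adjusted p = 0.026). Of 13 regulators, including Ppargc1a, Nrf1, Esrra and Tfam, none was called for HFD against ND or LU against HFD, and 1 was called for CLE against HFD, Polrmt, the mitochondrial RNA polymerase, with 6.29 ± 0.388 against 10.8 ± 3.11 FPKM (0.67, adjusted p = 0.040). Of 13 citric acid cycle genes, Fh1, fumarase, fell with the HFD from 131 ± 19.1 to 92.5 ± 3.30 (-0.49, adjusted p = 0.023), while Suclg2 was lower and Mdh2 higher in CLE than in HFD livers. Of 12 genes of mitochondrial mass, Timm23 fell with the HFD from 67.8 ± 6.55 to 50.1 ± 2.97 (-0.43, adjusted p = 0.017), and Tomm40 (0.50, adjusted p = 0.045) and Phb2 (0.44, 0.048) were higher in CLE than in HFD livers. These genes were picked from the lists by their calls, after their values were seen. For them, fits without one liver or with the corrections are not given. Over all names, the 364 higher and 426 lower calls for CLE against HFD became 5 and 18 without HFD mouse 15. Without CLE mouse 2 they became 996 and 1197. None of 13 names of mitochondrially encoded subunits was in the table, so these were not analysed here.

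RefSeq promoters on GRCm38.p6, 250 bases before to 50 after the start, were found for 59 of the 72 members. Each motif was searched on both strands. The NRF1 motif GCATGCGC was in 10 of 59 (16.9%) against 6.31% of tested names with a promoter and 3.05% of all promoters. The ETS motif CCGGAAG was in 15 (25.4%, against 20.9% and 9.93%), the YY1 motif AANATGGC in 14 (23.7%, against 10.7% and 6.96%), and the ERRA motif TGACCTTG in 4 (6.78%, against 1.36% and 1.76%). At least one was in 35 members (59.3%, against 34.0% and 19.5%), and none in 24. Atp5l, the g subunit of ATP synthase, was the one member with 3 of the motifs, shown for that reason (GRCm38.p6 chr9:44920743-44920992, minus strand). The capitals mark, from left to right, the NRF1 motif beginning 240 bases before the start, the reverse complement of the ETS motif at 212 bases, and the ERRA motif at 13 bases. A match of letters is a description and not a site. Atp5l had 352, 296 and 322 FPKM in ND, 452, 362 and 321 in HFD, 287, 436 and 331 in CLE, and 319, 330 and 309 in LU livers, with groups that overlapped and no call.
Atp5l: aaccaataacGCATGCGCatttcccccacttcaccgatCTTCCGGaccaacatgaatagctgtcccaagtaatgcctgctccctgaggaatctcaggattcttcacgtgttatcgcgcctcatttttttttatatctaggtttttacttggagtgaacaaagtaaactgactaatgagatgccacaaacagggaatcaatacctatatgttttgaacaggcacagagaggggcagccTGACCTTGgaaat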

How the data were processed

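Poly(A) RNA libraries of 12 livers, 3 a group (ND, HFD, CLE, LU), were made from TRIZOL extracts with a TruSeq kit. The submitters' processing notes name CASAVA 1.8.2, Bowtie2 2.2.3, TopHat2 2.0.12 and Cufflinks 2.2.1. The authors deposited FPKM values for 152210 transcripts, which Cufflinks apportions between transcripts that overlap, and a 0 can be a failed estimate. Whether the normalization factors that the methods name are part of them is not given in the sources used here, nor is the genome build. Of 78786 known transcripts, 85.5% have the same chromosome, start and end in GENCODE M21 (GRCm38), and its genes were used for coordinates. Sample titles call the CLE group CLL, and the descriptions give CLE.

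FPKM values of the 145894 transcripts with a gene name were summed per name and liver, and log2(FPKM + 1) was fitted in R 4.3.3 with limma 3.58.1 (variance trend, one coefficient per group, all 12 livers in one fit), with two-sided tests and Benjamini-Hochberg adjustment at 0.05 over the 10610 names with a mean of at least 1 FPKM. Fold changes are on that scale and understate changes of low genes. Single transcripts (24947) were tested in the same way. Tables and figures were made with Python 3.11.15, pandas 2.3.3 and matplotlib 3.10.9, and the fits were tested on simulated data. The members and lists were chosen with earlier results of these data known. Genes were named by fixed rules: the highest member of each complex, members called in HFD against ND, CLE against HFD or LU against HFD (up to 5 in each direction) or in CLE against LU, the core subunits of complex I, complex II, Uqcrc1, Uqcrc2, Uqcrfs1, the alpha, beta and c subunits of ATP synthase, and the isoform pairs. Results for 1 member are not reported here. Other members and transcripts, the members called against ND alone, and the genes of other lists were named after their values were seen. Settings other than these were a pseudocount of 0.1, no filter and minimum means of 0.5 and 5 FPKM, median-of-ratios and quantile scaling, the 2 groups alone, no variance trend, the most abundant transcript of a name, known transcripts only, smoothed corrections (span 0.5) for transcript length, GC content or both, the mouse number as a block, and each liver left out in turn. Sums by M21 gene, 2 livers left out together and the single transcripts were added after seeing the data. No count test was run, since counts cannot be recovered. Labels give no batch.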

Additional observations from a re-analysis of the deposited data

How the results depend on the processing

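The members' counts called were small and moved with the setting. For HFD against ND the count was 1, and 3 with median-of-ratios scaling, 2 with quantile normalization, 0 with the transcript of the highest mean, 4 with the length correction, 4 with the GC correction and 5 with both, with 0 to 1 when one liver was left out. For CLE against HFD it was 2, and 0 with no filter, the 2 groups alone, the transcript of the highest mean or 2 livers (HFD mouse 12 and CLE mouse 4) left out, 1 with median-of-ratios scaling, no variance trend, known transcripts only, the GC correction or both corrections, and 0 to 14 without one liver. For LU against HFD it was 0, and 1 with the 2 groups alone, the transcript of the highest mean or the 2 livers left out, and 0 to 1 without one liver. For CLE against ND it was 8, and 5 with the 2 groups alone, known transcripts only or the 2 livers left out, and 4 to 27 without one liver. For LU against ND it was 3, and 6 with median-of-ratios scaling or quantile normalization, 10 with the length correction and 7 with both, and, with more higher than lower calls, 10 with the 2 groups alone and 10 with the 2 livers left out. It was 2 to 9 without one liver. Among the 4 groups the count was 5, and 8 with quantile normalization, 3 with the transcript of the highest mean, 9 with the length correction and 8 with the 2 livers left out, and 2 to 19 without one liver. For CLE against HFD and CLE against ND the highest of these counts came without CLE mouse 2. LU against ND reached 9 without CLE mouse 2 or without CLE mouse 4, and LU against HFD reached 1 without CLE mouse 4. HFD against ND fell to 0 without any 1 of the ND or HFD livers.

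The members' median was -0.137 (length) and -0.133 (length and GC) for HFD against ND, -0.0772 (length), -0.0034 (GC) and -0.0763 (both) for CLE against ND, and -0.0588, -0.0261 and -0.0894 for LU against ND, where the values as deposited gave 0.04, 0.19 and 0.17. Single transcripts of members called for CLE against HFD were 5, and 3 with a pseudocount of 0.1, and without one liver they ran from 0 to 25, from 1 to 15 for LU against HFD, from 5 to 46 for CLE against ND and from 4 to 15 for LU against ND. The named values that turned direction with a call were Ndufv1 for CLE against ND with both corrections (-0.26) and Ndufa4 for LU against ND with known transcripts only (0.74). The cause of these moves was not tested, except that the last leaves out the longer Ndufa4 transcript.

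Mouse numbers shared with ND were 2 and 4 in CLE and 2 and 3 in LU. The correlations of these pairs' deviations were -0.27, -0.10, 0.09 and 0.19, and that of CLE and LU mouse 2 was -0.18. These values cannot settle whether equal numbers mark paired livers, and the labels do not say. With these numbers as a replicate block, 1 member was called for CLE against ND and 6 for LU against ND (4 higher and 2 lower). HFD mice share no number with another group, so their comparisons have no such fit. With 3 livers a group and no counts, changes under about 0.5 (log2) were mostly not detectable.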

Other observations

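Ndufs8, Atp5o, Ndufb2 and Ndufb8 stood under the names of neighbouring genes in the table, and Atp5mpl under another name of its own. They were therefore not members. These values are of the transcripts whose GENCODE M21 gene is the subunit, with no test. Ndufs8, a core iron-sulfur subunit of complex I listed under Aldh3b1, had 18.6 ± 0.85 FPKM in ND, 20.1 ± 0.41 in HFD, 32.9 ± 11.2 in CLE and 29.3 ± 3.87 in LU livers (SD, n = 3). All LU and CLE livers (the lowest at 20.9) were above all ND and HFD livers (the highest at 20.5), and the HFD livers were above the ND livers. Atp5o, the stalk subunit listed under Donson, had 129 ± 9.73, 136 ± 18.2, 184 ± 49.7 and 161 ± 5.23 FPKM. Ndufb2, listed under Adck2, had 138 ± 19.7, 148 ± 39.0, 163 ± 40.5 and 154 ± 7.02, and Ndufb8, listed under Sec31b, 147 ± 3.11, 147 ± 11.7, 147 ± 22.6 and 139 ± 4.87. Atp5mpl, listed under 2010107E04Rik, had 557 ± 18.1, 637 ± 117, 656 ± 158 and 518 ± 18.2. The groups of these last 4 genes overlapped, except that for Atp5o the LU livers (156 to 167 FPKM) were above all HFD livers (116 to 152), and the LU and CLE livers were above all ND livers (118 to 135).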
